A study of Mus musculus with 2 samples.

Results

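Nearly all mitochondrial proteins are encoded in the nucleus, made in the cytosol and imported. The TOM complex is the entry gate of the outer membrane. TIM23 and its motor pull proteins with a presequence into the matrix, and TIM22 with the small TIM chaperones inserts metabolite carriers into the inner membrane. Imported proteins are folded in the matrix by chaperonins, while fusion and fission factors set the shape of the mitochondrial network, which is dense in brown fat, the heat-producing tissue.

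The genes described here are the 43 of 54532 rows of a mouse RNA sequencing table whose symbol is Timm or Tomm followed by a digit, or that encode the named sorting, motor, chaperonin, fusion, fission, protease and prohibitin components. Symbols marked as pseudogenes were left out. The symbol rule also takes Tomm6os, a noncoding antisense gene, so 42 of the 43 are protein-coding. The tissue was interscapular brown fat of 1-month-old C57BL/6J mice, labelled male. The control library was made from pooled tissue of 3 littermates that carried the floxed Rheb alleles (rheb FL/FL) without Cre being named. The knockout library (rheb BAD KO) was made from 3 pooled mice that carried the same alleles and Ucp1-cre, which deletes Rheb, the GTPase that activates the kinase complex mTORC1, in cells that express the brown adipocyte gene Ucp1. By design the other cells of the depot keep Rheb, and which cells held the remaining Rheb transcripts was not measured. The design asks which transcripts differ between these tissues.

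Each group was 1 library, so no difference has a replicate check and no test between animals was possible. The libraries held 21855229 (control) and 23699316 (knockout) counts. Values are given as counts and as CPM, counts scaled to a common depth with TMM factors. The ratio is knockout over control CPM, and its 95% exact binomial (Clopper-Pearson) interval covers counting error only. A gene was called higher or lower where the ratio reached 1.5-fold and the interval excluded 1. Rheb itself had 1037 and 568 counts, a ratio of 0.553 (0.499 to 0.613). All 12 brown adipocyte markers were measured, with Ucp1 at 2211 and 2887 CPM, and they went both ways. Dio2 (ratio 4.06), Ppargc1a (2.38) and Pparg (2.04) were higher, Elovl3 (0.496) and Adipoq (0.567) were lower, and the other 7 lay in between. The male label of the control library did not match its sex-linked transcripts, since it held 7452 Xist counts and 0 of Eif2s3y, against 4 and 2653 in the knockout library. The libraries thus differed in these transcripts as well as in genotype. The parts of sex and of Rheb deletion in any ratio below cannot be told apart. Skeletal muscle markers stood lower in knockout tissue for all 18 measured of 19, with summed levels of 3861 and 423 CPM, and Tnnc2 was at 0 in both libraries. Muscle also expresses the import and dynamics genes. Macrophage markers summed to 59.8 and 127 CPM and erythroid markers to 2263 and 5823 CPM. The part of any of these in the differences below was not tested. In bulk tissue, fewer cells of a type and less RNA per cell cannot be told apart.

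Import and dynamics genes were mostly somewhat lower in the knockout library, and few were far from 1. Of the 40 genes whose mean reached 1 CPM, 12 were lower, 1 was higher and 27 lay in between. Over all 12973 genes measured, 22.9% were lower and 22.9% were higher at the same rule, so the 30.0% of these genes called lower is not far from the background, while the 2.50% called higher is well under it. The median log2 ratio was -0.35, beside -0.00 over all genes. Of the 40 genes, 30 were below 0, beside 6505 of the 12973 genes measured. With scaling to plain total counts 15 were lower and none was higher, where 28.5% of all genes were lower and 18.3% higher. That scaling moved the median of all genes to -0.13, and the median of the import and dynamics genes stayed 0.36 below it, against 0.35 with TMM. At a 2-fold threshold 3 were lower and none higher, beside 11.7% and 11.1% of all genes. The 3 lower were Grpel1, Timm29 and the noncoding Tomm6os. The genes below the filter were Tomm6, Tomm20l and Timm8a2, with 0 to 6 counts in each library.

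**Figure D1:**
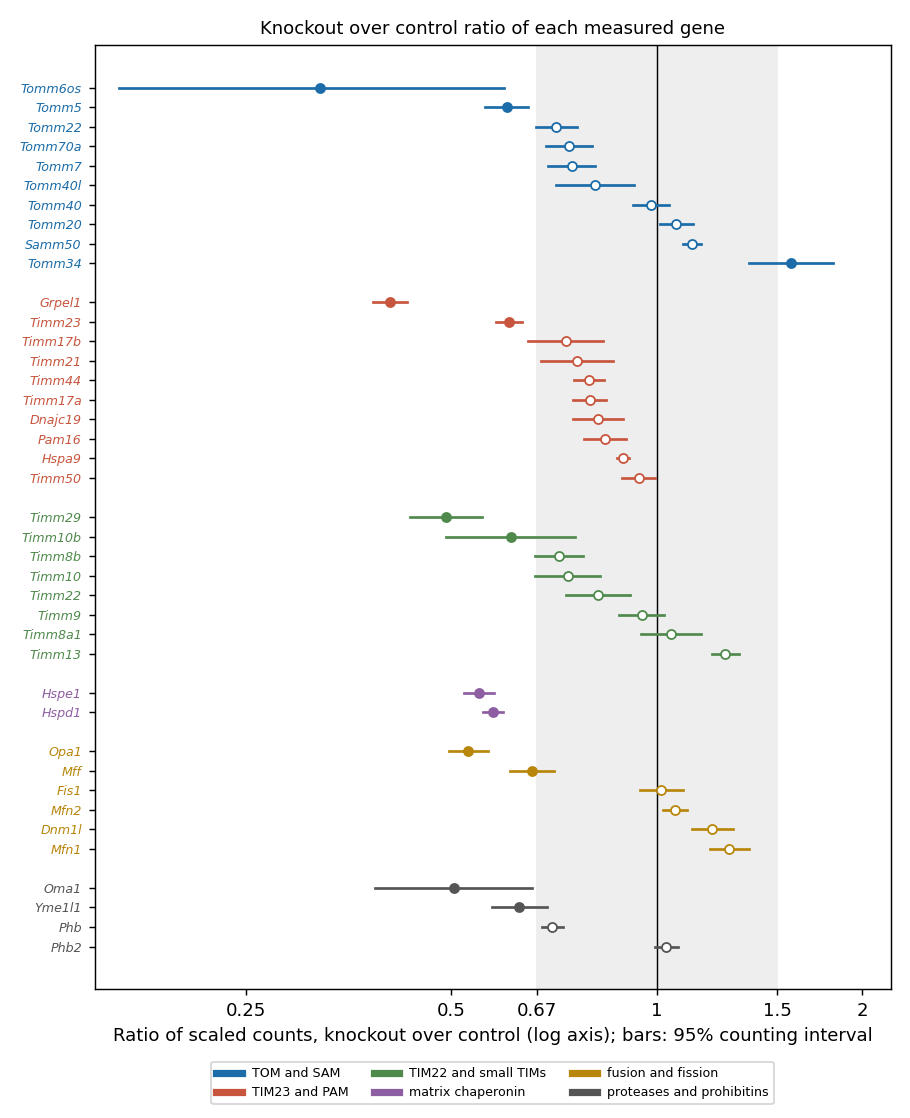
Ratio of TMM-scaled counts, knockout over control library (log axis), for the 40 measured genes grouped by role. Bars are 95% counting intervals, the grey band spans ratios within 1.5-fold and filled points are the 12 lower and 1 higher genes. All 10 genes of the TIM23 and motor group lie below 1, beside 6505 of the 12973 genes measured.

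The matrix chaperonin stood low in both of its subunits. Hspd1 encodes Hsp60, the barrel in which imported proteins fold, and Hspe1 encodes Hsp10, its lid. Hspd1 had 9446 counts (413 CPM) in control tissue and 5378 counts (237 CPM) in knockout tissue, 1.74-fold lower (1.68 to 1.80). Hspe1 had 4191 counts (183 CPM) and 2277 counts (101 CPM), 1.82-fold lower (1.73 to 1.92). Their balance was almost the same in the libraries, with 0.444 Hspe1 counts per Hspd1 count in control tissue and 0.423 in knockout tissue, and the interval of the change, a ratio of 0.954 (0.897 to 1.01), included 1. These genes lie head to head on chromosome 1 and the stretch between a start of each is shown here in full. It covers chr1:55087933-55088147 on the plus strand (RefSeq, build GRCm38.p6), with a start of Hspd1, on the minus strand, just before its left end and that of Hspe1 just after its right end. RefSeq gives Hspd1 another start, which lies past the start of Hspe1, and the window of that start, not shown, holds matches to the NRF1, E-box and CCAAT motifs. Capitals mark matches to CCGGAAG, a core motif of ETS factors, on either strand, here a pair of overlapping matches.
Hspd1-Hspe1: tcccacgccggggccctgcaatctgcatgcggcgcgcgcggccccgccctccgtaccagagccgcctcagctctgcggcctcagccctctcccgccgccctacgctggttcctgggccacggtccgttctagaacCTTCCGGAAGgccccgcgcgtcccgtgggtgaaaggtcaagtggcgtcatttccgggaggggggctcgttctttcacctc
Exons of the genes overlap by 112 bases on opposite strands, and the library kit does not mark the strand. Both also have processed pseudogenes. The 5 Hspd1 pseudogenes in the table held 76 counts in control tissue and 20 in knockout tissue, and the 6 of Hspe1 held none, so reads counted on those copies were few beside the parents. How reads that map to several places were treated is not given in the sources used here.

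In the TIM23 complex and its motor, every gene had a ratio below 1, from 0.406 to 0.941, yet only Grpel1 and Timm23 passed 1.5-fold. That is 20% of the 10 genes, near the 22.9% of all genes called lower. Over all 12973 genes measured, 6505 had a ratio below 1. Grpel1, the nucleotide exchange factor that resets the matrix Hsp70 of the motor, had 4012 counts (175 CPM) in control tissue and 1614 counts (71.3 CPM) in knockout tissue. That is 2.46-fold lower (2.32 to 2.61), the largest difference among the protein-coding genes of the set. The Hsp70 itself, Hspa9, was the most abundant gene of the set and took 17.1% of its counts in control tissue and 18.4% in knockout tissue. Hspa9 had 19481 and 17190 counts (852 and 759 CPM), a ratio of 0.891 (0.873 to 0.910). There were thus 0.206 Grpel1 counts for each Hspa9 count in control tissue and 0.0939 in knockout tissue. Such a ratio within a library does not depend on the scaling between libraries, and it was 0.456 times as large in the knockout library (0.429 to 0.485). Grpel2, its paralog and not counted in the set, had 445 and 419 counts (ratio 0.951, 0.830 to 1.09).

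The 250 bases before the RefSeq start of Grpel1, the protein-coding gene with the lowest ratio, are chr5:36464935-36465184 on the plus strand of GRCm38.p6. Capitals mark a match to CCGGAAG and then a match to the CCAAT box, searched as ATTGG, both on either strand.
Grpel1: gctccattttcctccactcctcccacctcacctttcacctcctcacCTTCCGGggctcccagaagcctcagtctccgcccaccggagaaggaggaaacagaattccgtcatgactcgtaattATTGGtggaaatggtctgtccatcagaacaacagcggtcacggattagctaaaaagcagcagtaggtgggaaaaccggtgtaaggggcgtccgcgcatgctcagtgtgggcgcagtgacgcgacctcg
Exons of Grpel1 share 411 bases with Tada2b on the opposite strand (430 and 297 counts).

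Timm23, the channel of the presequence translocase, had 5307 counts (232 CPM) in control tissue and 3194 counts (141 CPM) in knockout tissue, 1.65-fold lower (1.57 to 1.72). Its receptor partner Timm50 had 2574 and 2398 counts (113 and 106 CPM), a ratio of 0.941 (0.890 to 0.995). The channel fell from 2.06 counts per Timm50 count in the control to 1.33 in the knockout library, a change of 0.646 (0.601 to 0.694). Timm17a and Timm17b, paralogs that line the translocase, had ratios of 0.798 and 0.736 in CPM, and their balance differed by less than counting error (0.923, 0.803 to 1.06). The other motor and coupling genes lay close together in their ratios, namely Timm44, the motor's anchor (0.796), Timm21, which links to TOM (0.764), Pam16 (0.840) and Dnajc19 (0.820), which regulate and stimulate the Hsp70.

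**Figure D2:**
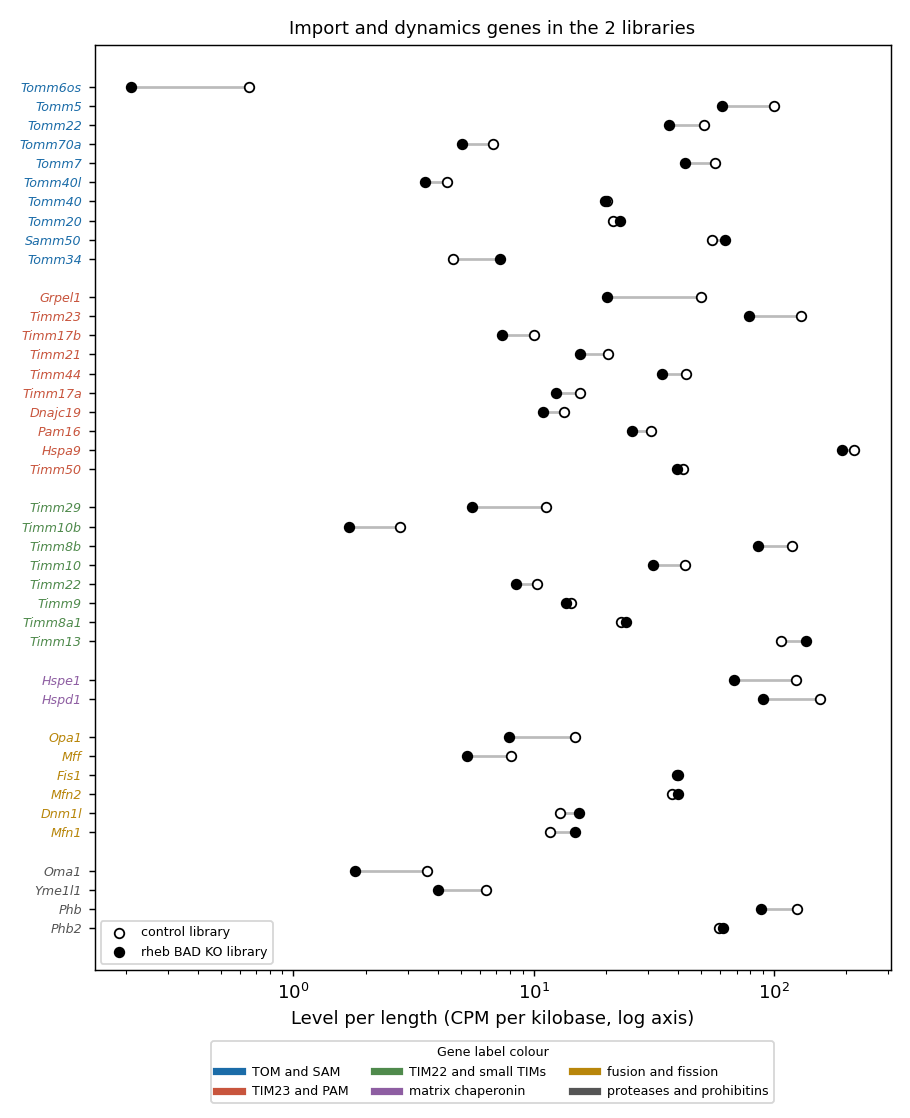
Level of each measured gene per length (CPM per kilobase of merged exons, log axis) in the control library (open circles) and the knockout library (filled circles), grouped by role as in the label colours. Hspa9 is highest, at 217 and 193, and the libraries differ less than the genes do.

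At the outer membrane the small subunit Tomm5 was lower, the other measured core genes lay in between and Tomm6 was below the filter. Tomm5 had 1996 counts (87.3 CPM) in control tissue and 1192 counts (52.6 CPM) in knockout tissue, 1.66-fold lower (1.54 to 1.78). Tomm22, the central receptor, had 1942 and 1370 counts (ratio 0.712, 0.664 to 0.764), Tomm7, another small subunit, a ratio of 0.750, and Tomm70a, the receptor for carriers, one of 0.743. The pore gene Tomm40 had 2090 and 2028 counts (ratio 0.980, 0.921 to 1.04) and its paralog Tomm40l had 512 and 412 counts (ratio 0.813, 0.712 to 0.927). Of the 5135 exon bases of Tomm40l, 3304 are shared with Nr1i3 on the opposite strand (8 and 1 counts). The part of this overlap in the counts of Tomm40l was not tested. Tomm20, the presequence receptor, had 2398 and 2537 counts (ratio 1.07, 1.01 to 1.13); the ratios of Tomm40 and Tomm20 change sides of 1 with the scaling, from 0.895 to 1.02 and from 0.976 to 1.11. Within the libraries the counts of Tomm22 went from 0.810 to 0.540 per count of Tomm20, a change of 0.667 (0.609 to 0.730). Samm50, which inserts barrel proteins such as Tomm40 into the membrane, had 8336 and 9300 counts, with a ratio of 1.13 (1.09 to 1.16).

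Tomm34 was the only gene called higher, and it is not a subunit of the gate but a cytosolic co-chaperone that holds precursors. It had 322 counts (14.1 CPM) in control tissue and 501 counts (22.1 CPM) in knockout tissue, a ratio of 1.57 (1.36 to 1.81). With total-count scaling the ratio was 1.43 and it was no longer called. Tomm6os had 44 and 14 counts, 3.11-fold lower (1.67 to 6.15). Its exons overlap those of several genes, Tomm6 among them, which had 4 and 6 counts. Tomm20l, a paralog of Tomm20, had 1 and 0 counts.

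Among the genes of the carrier pathway, Timm29 and Timm10b were lower, and both belong to the TIM22 complex. Timm29, a TIM22 subunit of animals, had 816 counts (35.7 CPM) in control tissue and 397 counts (17.5 CPM) in knockout tissue, 2.04-fold lower (1.80 to 2.30). Timm10b had 228 and 138 counts, 1.64-fold lower (1.32 to 2.04). Exons of Timm10b share 277 bases with Arfip2 on the opposite strand (1283 and 2567 counts), and those of Timm29 share 107 bases with Yipf2 (118 and 75 counts). The channel gene Timm22 had 752 and 611 counts, a ratio of 0.821 (0.736 to 0.914).

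The small TIMs, which escort carriers across the space between the membranes, did not move as a block. Timm8b (ratio 0.719, 0.663 to 0.780) and Timm10 (0.740, 0.664 to 0.825) were under 1, Timm9 (0.951, 0.881 to 1.03) and Timm8a1 (1.05, 0.948 to 1.16) were not separated from 1 by counting error, and Timm13 was above it. Timm13 had 3376 counts (148 CPM) in control tissue and 4214 counts (186 CPM) in knockout tissue, a ratio of 1.26 (1.20 to 1.32), which does not reach 1.5-fold. Timm9 and Timm10 form a joint chaperone, and Timm10 went from 0.566 to 0.441 counts per Timm9 count (change 0.778, 0.681 to 0.889). For Timm8a1 and Timm13, also partners, the change was 0.832 (0.744 to 0.930). The paralogs Timm8b and Timm8a1 differed in the same way, from 1.88 to 1.29 Timm8b counts per Timm8a1 count. Timm8a2 had 2 and 4 counts.

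In mitochondrial dynamics, Opa1 and Mff were lower while the mitofusins and Dnm1l were not. Opa1, the GTPase that fuses inner membranes and holds cristae, had 2685 counts (117 CPM) in control tissue and 1408 counts (62.2 CPM) in knockout tissue, 1.89-fold lower (1.77 to 2.02). Mfn2, which fuses outer membranes, had 4467 and 4707 counts (195 and 208 CPM), a ratio of 1.06 (1.02 to 1.11; 0.972 with total counts). Its paralog Mfn1 had 1635 and 2067 counts (71.5 and 91.3 CPM), a ratio of 1.28 (1.20 to 1.36). Counts of Opa1 per Mfn2 count went from 0.601 in the control to 0.299 in the knockout library, a change of 0.498 (0.461 to 0.538). Mfn1 counts per Mfn2 count went from 0.366 to 0.439, a change of 1.20 (1.11 to 1.30).

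The 250 bases before the RefSeq start of Opa1, the fusion gene with the lowest ratio, are chr16:29579084-29579333 on the plus strand of GRCm38.p6. Capitals mark, from the left, matches to TGANTCA (AP-1), to the CCAAT box as above and to the motif of NRF1, a regulator of nuclear genes for mitochondria.
Opa1: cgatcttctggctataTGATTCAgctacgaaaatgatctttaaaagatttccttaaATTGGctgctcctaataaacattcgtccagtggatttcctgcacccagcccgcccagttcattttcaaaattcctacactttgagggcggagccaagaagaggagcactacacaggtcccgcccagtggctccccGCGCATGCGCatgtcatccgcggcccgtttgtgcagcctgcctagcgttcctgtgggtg

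On the fission side the genes went different ways. Mff, an outer membrane receptor that recruits the fission GTPase, had 1801 and 1169 counts (78.7 and 51.6 CPM), 1.53-fold lower (1.42 to 1.64). With total counts taken without mitochondrially encoded genes and the 20 highest genes its ratio was 0.684, short of the threshold. Dnm1l, which encodes that GTPase, Drp1, had 1531 and 1828 counts (66.9 and 80.7 CPM), a ratio of 1.21 (1.13 to 1.29). Per Dnm1l count, Mff went from 1.18 to 0.639 counts and Opa1 from 1.75 to 0.770. Fis1, another outer membrane adaptor, had 1545 and 1554 counts, a ratio of 1.02 (0.946 to 1.09).

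The proteases that cleave Opa1 at the inner membrane were lower, along with their substrate. Oma1, the stress-activated protease, had 176 and 88 counts (7.70 and 3.89 CPM), 1.98-fold lower, with a wide interval at this depth (1.52 to 2.59). Yme1l1, the ATP-dependent protease, had 1159 and 722 counts (50.7 and 31.9 CPM), 1.59-fold lower (1.45 to 1.75). The prohibitins Phb and Phb2 assemble together into ring scaffolds of the inner membrane. Phb had 8049 and 5605 counts (352 and 248 CPM), a ratio of 0.703 (0.680 to 0.728), whereas Phb2 had 5047 and 5157 counts (221 and 228 CPM), a ratio of 1.03 (0.993 to 1.07). Phb thus went from 1.59 to 1.09 counts per Phb2 count, a change of 0.682 (0.647 to 0.718).

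**Figure D3:**
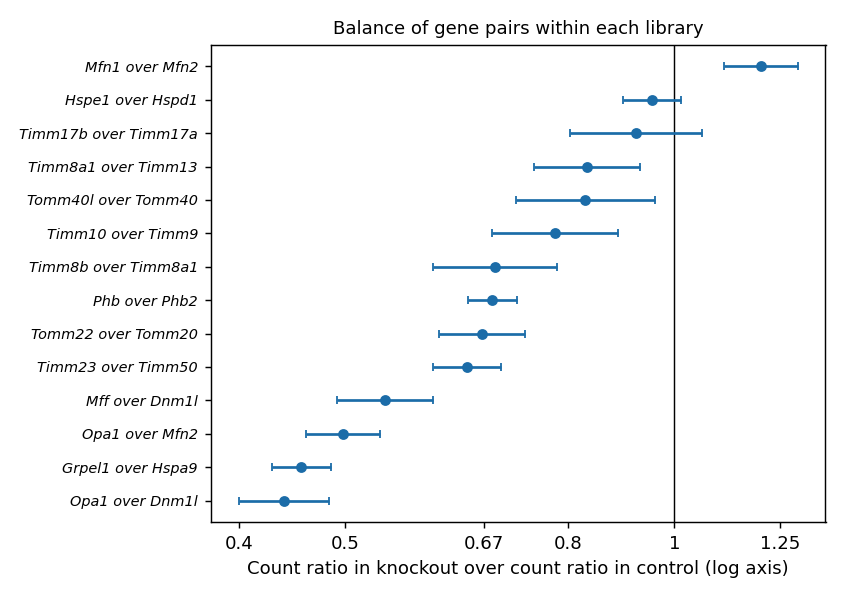
Change of the count ratio of 14 gene pairs between the libraries (ratio in the knockout over ratio in the control library, log axis), with 95% counting intervals. Intervals of Hspe1 over Hspd1 and of Timm17b over Timm17a include 1, Mfn1 over Mfn2 lies above 1 and the other 11 lie below. The side of 1 on which a pair lies depends on which gene is the numerator. Pairs other than paralogs were picked with the data in view, so the number of pairs below 1 is not a result.

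Genes outside the set, mostly of the same processes, were counted by the same rule, to be read beside the 22.9% of all genes called in each direction. No difference between lists was tested. Of 19 further genes, most of them of precursor processing and import, 9 were lower, none higher, and the median log2 ratio was -0.46. The list also holds Timmdc1, Trap1, Hscb and Tspo, which are not processing or import genes. Of these, Timmdc1 (0.578) and Trap1 (0.657) are among the 9 lower. Pmpcb, the catalytic subunit of the protease that removes presequences, had 2554 and 1007 counts (ratio 0.398, 0.370 to 0.429), and its partner Pmpca had 1479 and 849 counts (0.580). Xpnpep3, which trims processed ends, had a ratio of 0.411 and Immp2l, of the inner membrane peptidase, one of 0.492. Of 9 genes of MICOS, the complex that shapes cristae junctions, and of related inner membrane factors, 4 were lower and none higher (median -0.26), with the core subunit gene Immt at 7916 and 4772 counts (0.609), Apoo at 0.586 and Letm1, an ion exchanger, at 0.504. Of 10 quality control genes 2 were lower, the matrix protease gene Lonp1 (0.642) and Stoml2 (0.643), a share near that of all genes, and the median was -0.26. Both ratios were just past the threshold. With total counts taken without mitochondrially encoded genes and the 20 highest genes, both fall short of it.

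Adaptors of dynamics and motility had 4 of 16 measured genes higher (25%) and 3 lower (18.8%), shares near those of all genes, and a median of 0.13, which turns to -0.00 with total counts. The fusion and fission genes of the set had a median of 0.06, which turns to -0.07 with total counts. Pink1, the kinase that marks damaged mitochondria, had 5338 and 2253 counts (233 and 99.5 CPM), a ratio of 0.426 (0.406 to 0.448). Pgam5, a phosphatase of the mitochondrial membranes, had 116 and 48 counts (0.418, 0.292 to 0.590). Mief2, an adaptor that recruits the fission GTPase as Mff does, had 1182 and 2114 counts (1.81, 1.68 to 1.94), in the direction opposite to Mff. Mtfr2 had 8 and 65 counts (8.21, 3.93 to 19.8).

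Beside these, 2 other families of mitochondrial genes were described in the same way. Of 77 measured mitochondrial ribosomal protein genes 27 were lower (35.1%) and 1 was higher (1.30%). Their median log2 ratio was -0.36, close to that of the import and dynamics genes, of which 30.0% were lower and 2.50% higher. For 38 complex I subunit genes 8 were lower (21.1%, beside 22.9% of all genes) and 2 higher, with a median of -0.12, nearer to 0 than the -0.35 of the import and dynamics genes.

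**Figure D4:**
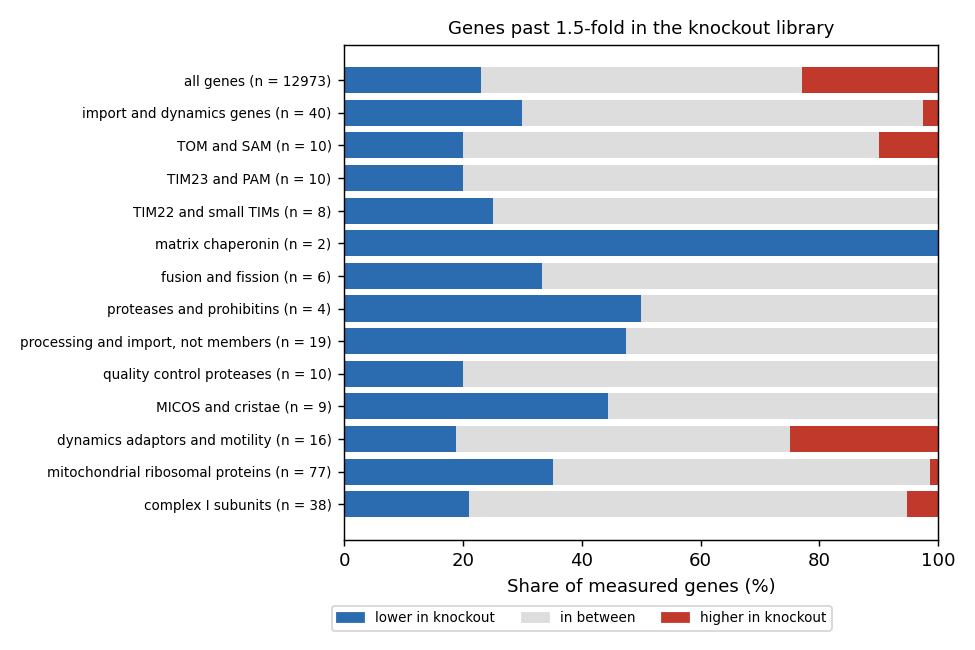
Share of measured genes at least 1.5-fold lower (blue), in between (grey) or at least 1.5-fold higher (red) in the knockout library, for all genes, the import and dynamics genes, their role groups, the wider lists and the comparison families. Lower shares run from 18.8% for the motility list to 100% of the 2 chaperonin genes, and over all genes lower and higher are even at 22.9%.

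Promoter windows were compared only as letters. RefSeq windows of 300 bases (250 before to 50 after a start) were found for 39 of the 43 genes, 47 windows in all. CCGGAAG, on either strand, stood in 19 of them (40.4%), beside 17.1% of 12418 windows of genes measured here and 8.86% of all 32851 windows. The NRF1 motif stood in 7 (14.9%), beside 9.77% of windows of measured genes, CACGTG (E-box) in 8 (17.0% and 9.95%), TGANTCA in 5 (10.6% and 4.99%) and ATTGG in 18 (38.3% and 37.4%). Windows of genes called lower held CCGGAAG in 7 of 14 cases, and those of the other genes in 12 of 33. For the NRF1 motif these were 3 and 4 windows, for CACGTG 2 and 6, for TGANTCA 1 and 4 and for ATTGG 5 and 13. The window of Hspe1 and the Hspd1 window that overlaps most of it hold the same matches and count separately here. Both windows of Tomm34, which overlap, hold CCGGAAG, as do both windows of Fis1, and these also count separately.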

How the data were processed

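Interscapular brown fat RNA was sequenced as 1 library per group, each from 3 pooled mice. The authors deposited raw counts per Ensembl gene; per the submitters' processing notes, Trimmomatic, HISAT2, featureCounts and mm10 were used, with settings not given in the sources used here. The length in bases that the authors' table gives per gene equals the merged exons in 100% of rows. Libraries were prepared with the TruSeq v2 kit, which does not mark strand.

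CPM used TMM factors from edgeR 4.0.16 on all rows (R 4.3.3). Log2 ratios carry a pseudocount of 0.5 CPM. The filter was a mean of 1 CPM over the libraries. Intervals are 95% Clopper-Pearson; intervals of pair ratios are exact conditional ones (scipy 1.17.1). PCR copies are not independent molecules. The intervals and calls were checked on simulated counts, which cannot show the spread between animals. No p-value was computed with 1 library per group.

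The genes and lists were chosen with earlier results of these data known. Genes were named by the largest absolute log2 ratio in a role group (up to 4) or wider list (up to 3), or past 2-fold; other named genes and the pairs not of paralogs were chosen after their values were seen. Gene types came from GENCODE M21, matching 54495 identifiers. Protein comparisons that had been planned were not run.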

Additional observations from a re-analysis of the deposited data

How the results depend on the processing

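No paired analysis was possible because the groups hold 1 pooled library each, and for that reason none was left out in turn. The count of 12 lower genes was 9 to 15 under other scalings and filters, where 18.2% to 28.5% of all genes were lower. It was 12 with 0.5 CPM and 10 with 2 CPM added before the fold, beside 21.9% and 17.9% of all genes. At a 2-fold threshold the count was 3, beside 11.7% of all genes. Among the 22 measured genes whose exons overlap no exon on the opposite strand, 5 were lower. That share is near the 22.9% of all genes, taken without this restriction. The restriction was chosen after seeing the data and counts fewer genes by construction. The count of 1 higher gene was 0 with total counts and 0 at the 2-fold threshold, beside 18.3% and 11.1% of all genes, and 1 elsewhere. The median log2 ratio of -0.35 was -0.48 with total counts, which shift all genes down, and -0.29 to -0.37 in the other settings, among them leaving out Tomm6os (-0.33, also chosen after seeing the data). With other scalings no called gene changed direction, but 6 genes near 1 (Mfn2, Fis1, Phb2, Tomm40, Tomm20, Timm8a1) changed sides of it. Genes under 100 counts in a library (Oma1, Tomm6os) have the widest intervals.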

Other observations

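Tomm6, a small subunit of the outer membrane gate, was listed with 4 counts in control and 6 in knockout tissue, while the other small subunit genes Tomm5 and Tomm7 had 1090 to 1996 counts. Of the 1131 exon bases of Tomm6 in the table, 859 are shared with Gm21981 on the same strand, a row with 0 and 3 counts. On the opposite strand 219 of its exon bases are shared with Tomm6os and 93 with Usp49, and these stretches partly coincide with each other or with the 859. The part of the overlaps in the low counts of Tomm6 was not tested.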
